A study of Mus musculus with 15 samples.

Results

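Mouse counterparts of 9 genes that can be mutated in familial amyotrophic lateral sclerosis (ALS) were followed through motor neurons of a mouse model of spinal muscular atrophy (SMA). They were Sod1, Tardbp, Vcp, Sqstm1, Optn, Tbk1, Chchd10, Ubqln2 and Matr3. They were taken by symbol from a table of gene levels and make up 9 of its 36144 genes. ALS and SMA are both diseases in which motor neurons are lost.

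The neurons lay in lumbar segments L1 to L3 of FVB mouse pups at postnatal day 6. They were marked with cholera toxin subunit B, a tracer carried back from the muscle, and cut out by laser capture, and both sexes were used in equal parts. There were 15 libraries, 3 biological replicates in each of 5 groups. WT pups had both Smn alleles (Smn+/+;SMN2;SMNΔ7) and received vehicle. SMA pups lacked mouse Smn (Smn−/−;SMN2;SMNΔ7) and received vehicle. The WT littermates carried the human SMN2 and SMNΔ7 transgenes as well, so the groups differ in mouse Smn and not in the transgenes. The other 3 groups were SMA pups injected into the peritoneum every day from postnatal day 0. SMA+MW150 received 5 mg/kg of an inhibitor of the stress kinase p38α. SMA+Pifithrin-α received 2.2 mg/kg of an inhibitor of p53, and SMA+SMN-C3 received 3 mg/kg of a small molecule that shifts the splicing of SMN2. How many pups went into a library is not stated, and p-values measure only the spread between libraries.

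Motor neurons have very long axons and a high load of protein and mitochondrial turnover, and the 9 genes work in that upkeep. Tardbp and Matr3 encode nuclear proteins that bind RNA. Vcp and Ubqln2 encode factors that bring ubiquitin-tagged proteins to the proteasome. Sqstm1 and Optn encode receptors that carry tagged cargo into autophagosomes, and Tbk1 encodes the kinase that phosphorylates both receptors. Sod1 encodes the cytosolic copper-zinc superoxide dismutase, and Chchd10 a small protein of the mitochondrial intermembrane space. In patients with ALS, the protein made from TARDBP (TDP-43) is commonly found in cytoplasmic deposits.

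None of the 9 genes passed the test between any pair of groups (limma, Benjamini-Hochberg adjusted p under 0.05). All 9 were measured at 1 TPM or more in all 15 libraries, so no member was lost to the filter on low values. TPM is a share of all transcripts corrected for transcript length, so levels can be compared between genes. The mean over the 15 libraries ran from 17.4 TPM for Optn to 1143 TPM for Chchd10. Chchd10 ranked 123rd of the 15425 tested genes.

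The bases before the start sites of 4 members are shown because these 4 stood on opposite sides in 2 libraries described further on. By gene totals, Tardbp and Tbk1 were high there, and Sod1 and Vcp were low. Each run holds the 250 bases upstream of the RefSeq start (GRCm38.p6), in the direction of transcription. Capitals mark matches, on either strand, to the GC box GGGCGG, the CCAAT box CCAAT, the TATA box TATAAA and the antioxidant response element core TGACNNNGC. Neighbouring or overlapping matches run together. Tardbp lies on the minus strand at chr4:148626997-148627246, Tbk1 on the minus strand at chr10:121586795-121587044, Sod1 on the plus strand at chr16:90220512-90220761 and Vcp on the minus strand at chr4:43000508-43000757.
Tardbp: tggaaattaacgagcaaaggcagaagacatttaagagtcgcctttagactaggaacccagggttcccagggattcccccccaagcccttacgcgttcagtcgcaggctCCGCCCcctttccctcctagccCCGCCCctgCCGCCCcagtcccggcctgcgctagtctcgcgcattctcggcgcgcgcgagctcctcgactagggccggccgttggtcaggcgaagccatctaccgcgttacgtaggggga
Tbk1: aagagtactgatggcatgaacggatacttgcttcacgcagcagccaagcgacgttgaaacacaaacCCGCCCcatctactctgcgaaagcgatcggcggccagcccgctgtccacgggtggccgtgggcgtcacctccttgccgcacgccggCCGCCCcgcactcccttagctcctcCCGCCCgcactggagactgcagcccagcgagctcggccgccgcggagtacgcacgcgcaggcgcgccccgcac
Sod1: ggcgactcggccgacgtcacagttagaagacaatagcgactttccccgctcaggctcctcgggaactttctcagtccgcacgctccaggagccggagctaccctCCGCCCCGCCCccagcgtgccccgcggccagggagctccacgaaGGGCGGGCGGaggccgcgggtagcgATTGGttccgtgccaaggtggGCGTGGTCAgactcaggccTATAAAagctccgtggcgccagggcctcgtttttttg
Vcp: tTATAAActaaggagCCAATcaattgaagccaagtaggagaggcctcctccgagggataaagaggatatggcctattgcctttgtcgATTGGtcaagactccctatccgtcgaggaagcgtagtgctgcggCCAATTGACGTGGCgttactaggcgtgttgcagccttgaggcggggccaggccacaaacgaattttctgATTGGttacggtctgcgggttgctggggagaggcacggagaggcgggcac
Tardbp and Tbk1 each held 3 GC boxes and none of the other 3 motifs. Sqstm1, which was low in those 2 libraries and is not printed, also held 3 GC boxes and none of the others. Chchd10, low there as well and not printed, held none of the 4 motifs. The part of the motifs in the direction was not tested. Sod1 held 4 GC boxes, 1 CCAAT box and 1 TATA box that begins 37 bases before the start. Vcp held no GC box, 4 CCAAT boxes and 1 TATA box that begins 249 bases before the start. The antioxidant response element core, the site type read by the oxidative stress factor NRF2, occurred once in each of Sod1 and Vcp.

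Promoters of 7 of the 9 members were in the RefSeq table, without Ubqln2 and Matr3. The GC box occurred in 5 of the 7 and in 32.7% of all 32851 promoters of this length. CCAAT occurred in 2 of the 7 against 33.8% of all. TATAAA occurred in 2 of the 7 against 12.4%, and the antioxidant response element core in 2 of the 7 against 10.2%. The half-site of p53, the factor that Pifithrin-α inhibits, matched in 0 of the 7 and in 7.13% of all promoters. A match describes letters and not binding. The 250 bases were 63.6% G or C in Tardbp, 68.4% in Tbk1, 66.4% in Sod1 and 54.8% in Vcp, and 53.2% over all promoters. In the members not printed they were 63.2% in Sqstm1, 52.4% in Chchd10 and 50.0% in Optn.

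Across the libraries, the mean gene totals, with all forms counted, fell into a clear order at the top. Chchd10 was above Sqstm1, Sqstm1 above Sod1, and Sod1 above Vcp in 15 of 15 libraries each. Matr3 was above Tardbp and Tardbp above Ubqln2 in 15 of 15. The 3 remaining pairs of neighbours were not separated beyond their spread. Vcp exceeded Matr3 in 11 of 15 libraries, Ubqln2 exceeded Tbk1 in 7 of 15, and Tbk1 exceeded Optn in 7 of 15. This order is that of gene totals, and 41.9% of the Chchd10 total is a short form that keeps an intron. With coding forms alone, Chchd10 was below Sqstm1 in WT 1 (337 against 407 TPM) and in every Pifithrin-α library. Tardbp was then below Ubqln2 in WT 1 (34.9 against 70.6 TPM). The panels of TPM by library show all 135 values.

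**Figure D1:**
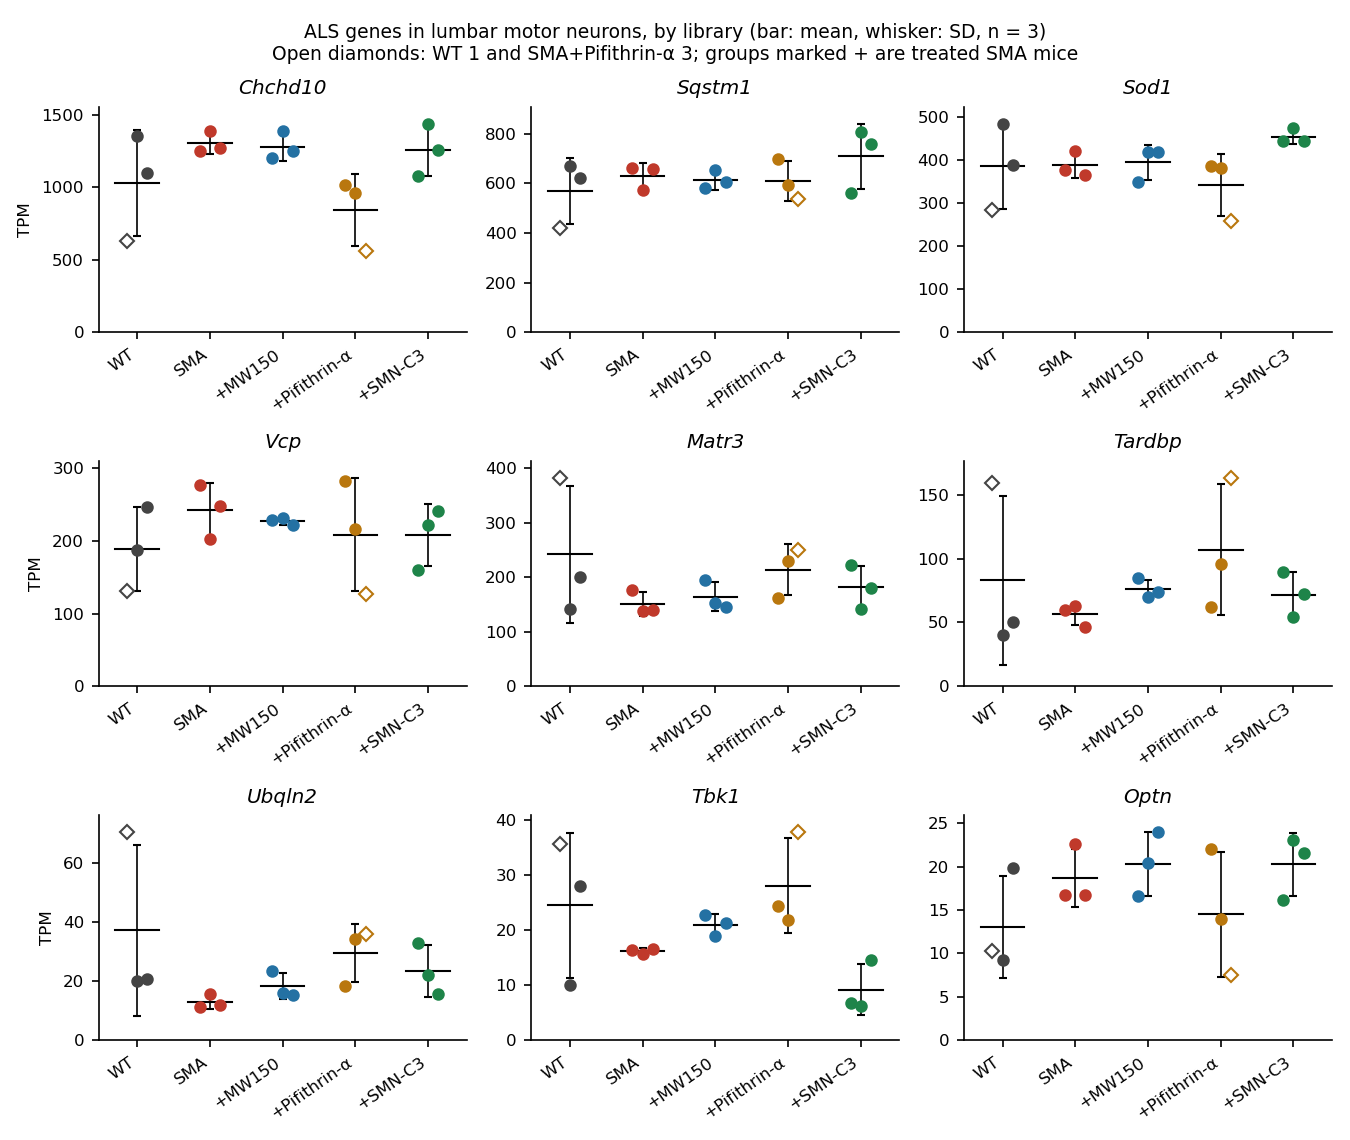
Level of each ALS gene in TPM (linear axis from 0) in the 15 libraries, with the mean and SD of each group of 3. Filled circles are libraries and open diamonds are WT 1 and SMA+Pifithrin-α 3. WT 1 is the highest WT library for Tardbp, Matr3, Ubqln2 and Tbk1 and the lowest for Sod1, Vcp, Sqstm1 and Chchd10.

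The libraries carried the marks of their groups and also differed in other ways. Smn1, the gene deleted in SMA mice, measured 8.97 to 23.3 TPM in WT and 0.0 to 1.5 TPM in the other 12 libraries. Its log2 difference between SMA and WT was -3.84 ± 0.42 (SE, limma adjusted p = 0.000154). The motor neuron gene Chat, which makes acetylcholine, measured 36.6 TPM in SMA+Pifithrin-α 3 and 73.5 to 132.7 TPM elsewhere, while the sum of 16 motor neuron markers was 12026 TPM there, inside the span of all libraries from 10854 TPM (SMA 2) to 18787 TPM. Transcripts of the 13 mitochondrially encoded genes made up 21.9% of TPM in WT 1 and 20.4% in SMA+Pifithrin-α 3. SMA+Pifithrin-α 2 (12.6%) and SMA+SMN-C3 1 (11.3%) followed, and the remaining 11 libraries had 3.76% to 7.55%. The sum of 12 microglial markers was 71.0 to 100.02 TPM in WT and 191 to 224 TPM in SMA, and 1 of the 12 was called between them. It was 137 to 195 TPM with MW150, 82.6 to 145 TPM with Pifithrin-α and 99.3 to 131.7 TPM with SMN-C3. The sum of 10 astrocyte markers was lowest in WT 1 (758 TPM) and SMA+Pifithrin-α 3 (761 TPM) and reached 1869 TPM in SMA 2. The sum of 12 oligodendrocyte lineage markers ran from 501 TPM in SMA+Pifithrin-α 3 to 6541 TPM in SMA+MW150 3, and that of 6 red blood cell markers from 300.3 TPM to 3549 TPM. Their part in the values that follow was not tested, and in such bulk samples fewer cells of a type and less RNA per cell cannot be told apart.

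Among the RNA-binding members, Tardbp measured 159, 39.9 and 50.0 TPM in WT 1 to 3 and 59.96, 62.7 and 46.6 TPM in SMA 1 to 3. With treatment it measured 84.4, 69.5 and 73.7 TPM (MW150), 61.9, 96.0 and 163 TPM (Pifithrin-α) and 89.3, 54.2 and 71.95 TPM (SMN-C3). WT 1 and SMA+Pifithrin-α 3 stood well above the other 13 libraries, and the WT and SMA groups overlapped. TDP-43, its product, controls splicing and limits its own mRNA. The log2 difference between SMA and WT was -0.28 ± 0.43 (SE, limma adjusted p = 0.745), and it was 0.32 without WT 1. All 3 MW150 libraries exceeded all 3 SMA libraries, by 0.43 on the log2 scale with a 95% interval from -0.47 to 1.33 (limma adjusted p = 1.0).

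Matr3, which encodes the nuclear matrix protein matrin 3, measured 383, 142 and 201 TPM in WT and 177, 137 and 139 TPM in SMA. Its treated libraries measured 195, 153 and 145 TPM (MW150), 161, 230 and 251 TPM (Pifithrin-α) and 222, 142 and 180 TPM (SMN-C3). Every pair of groups overlapped, and WT 1 was the highest of the 15. The log2 difference between SMA and WT was -0.56, with a 95% interval from -1.23 to 0.10 (limma adjusted p = 0.417). The difference was -0.17 without WT 1 and -0.88 without WT 2.

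Of the members that serve the proteasome, Ubqln2 had the largest difference between SMA and WT of the 9 genes. Its protein ferries ubiquitin-tagged clients to the proteasome, and it has a single exon on the X chromosome. Ubqln2 measured 70.6, 20.1 and 20.8 TPM in WT against 11.2, 15.5 and 11.7 TPM in SMA, so the lowest WT library lay above the highest SMA library. The ratio was 0.427 on the log2(TPM+1) scale, with a 95% interval from 0.227 to 0.803 (log2 -1.23 ± 0.43, SE). The adjusted p of limma was 0.286, and the unadjusted p was below 0.05. Ubqln2 kept its place below WT after median-of-ratios scaling, but the log2 difference was -0.65 without WT 1. It was -0.55 in a fit that also holds each library's mitochondrial share.

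Treated pups had Ubqln2 levels of 23.5, 15.9 and 15.4 TPM (MW150), 18.2, 34.2 and 36.1 TPM (Pifithrin-α) and 33.0, 21.9 and 15.6 TPM (SMN-C3). All 3 Pifithrin-α libraries and all 3 SMN-C3 libraries lay above all 3 SMA libraries, and the MW150 libraries overlapped SMA. Against SMA, the log2 difference was 1.10 ± 0.43 with Pifithrin-α (SE, limma adjusted p = 0.461). It was 0.78 ± 0.43 with SMN-C3 (SE, limma adjusted p = 0.662) and 0.47 ± 0.43 with MW150 (SE, limma adjusted p = 1.0). In the fit that holds the mitochondrial share, the Pifithrin-α difference was 0.36, and without SMA+SMN-C3 1 the SMN-C3 difference was 0.51. These 3 comparisons share the SMA libraries. On the TPM scale no treated group was separated from WT.

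Vcp, the ATPase that pulls tagged proteins out of complexes and membranes, measured 131, 188 and 247 TPM in WT and 277, 203 and 248 TPM in SMA. It measured 228, 231 and 222 TPM with MW150, 283, 216 and 127 TPM with Pifithrin-α, and 160, 222 and 242 TPM with SMN-C3. No 2 groups were separated. MW150 had the tightest replicates (SD 4.92 TPM) and Pifithrin-α the widest (SD 78.3 TPM). The log2 difference between SMA and WT was 0.40, with a 95% interval from -0.23 to 1.03 (limma adjusted p = 0.513), and it was 0.16 without WT 1 and 0.62 without WT 3.

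Among the autophagy members, Sqstm1, which encodes the receptor p62, measured 420, 670 and 620 TPM in WT and 662, 572 and 658 TPM in SMA. It measured 579, 654 and 604 TPM with MW150, 698, 594 and 537 TPM with Pifithrin-α, and 561, 808 and 758 TPM with SMN-C3. The groups overlapped in all 10 comparisons. The highest library was 1.93 times the lowest, a narrow span beside the median of 4.44 times over all tested genes. The log2 difference between SMA and WT was 0.17, with a 95% interval from -0.31 to 0.65 (limma adjusted p = 0.712), and -0.03 without WT 1.

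Optn, which encodes the receptor optineurin, was the lowest of the 9 genes on average. Levels were 10.2, 9.19 and 19.8 TPM in WT and 16.7, 22.6 and 16.8 TPM in SMA. With treatment they were 16.6, 20.4 and 24.0 TPM (MW150), 22.0, 13.9 and 7.51 TPM (Pifithrin-α) and 16.2, 23.0 and 21.6 TPM (SMN-C3). One WT library stood among the SMA values and the other two below them. The log2 difference between SMA and WT was 0.55, with a 95% interval from -0.23 to 1.32 (limma adjusted p = 0.474). It was 0.35 without WT 2 and 0.87 without WT 3.

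Tbk1 had the smallest p of the 9 genes in the test over all 5 groups (limma F test, adjusted p = 0.427). Its product is a kinase of autophagy and of innate immune signalling. Tbk1 measured 35.6, 9.98 and 28.0 TPM in WT and 16.4, 15.7 and 16.6 TPM in SMA. With SMN-C3 it measured 6.74, 6.25 and 14.5 TPM, below every SMA, MW150 and Pifithrin-α library. The MW150 libraries measured 22.6, 18.9 and 21.3 TPM and the Pifithrin-α libraries 24.4, 21.8 and 37.8 TPM, all above the SMA libraries. The 3 SMA libraries agree closely with each other (SD 0.467 TPM), and the WT libraries spread over both sides of them.

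The difference of Tbk1 between SMN-C3 and SMA was -0.85 on the log2 scale, with a 95% interval from -1.71 to 0.0047 (limma adjusted p = 0.585). Between SMN-C3 and WT it was -1.25 ± 0.41 (SE, limma adjusted p = 0.634), although WT 2 lay inside the SMN-C3 range. MW150 stood 2.29 times above SMN-C3, with a 95% interval from 1.27 to 4.15 times (limma adjusted p = 0.289). Pifithrin-α stood 2.95 times above it, with a 95% interval from 1.63 to 5.35 times (limma adjusted p = 0.394). After median-of-ratios scaling the SMN-C3 and SMA libraries overlapped, with a log2 difference of -0.61. A fit of the MW150 and SMN-C3 libraries alone gave an adjusted p of 0.0467 (limma), where 664 genes were called against 1 in the fit of all libraries.

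Sod1, whose product clears superoxide from the cytosol, measured 284, 482 and 388 TPM in WT and 376, 420 and 365 TPM in SMA. It measured 347, 418 and 418 TPM with MW150, 386, 381 and 259 TPM with Pifithrin-α, and 444, 473 and 443 TPM with SMN-C3. All 3 of the last exceeded every SMA, MW150 and Pifithrin-α library, while WT 2 was higher still. The log2 difference between SMN-C3 and SMA was 0.23, with a 95% interval from -0.26 to 0.72 (limma adjusted p = 0.839), and it was 0.49 after median-of-ratios scaling. Between SMA and WT the difference was 0.04, with a 95% interval from -0.45 to 0.53 (limma adjusted p = 0.941). That interval leaves room for up to 1.45 times the WT level or down to 0.731 times.

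Chchd10, whose protein belongs with the contact sites of mitochondrial cristae, measured 632, 1355 and 1099 TPM in WT and 1251, 1390 and 1272 TPM in SMA. It measured 1202, 1387 and 1248 TPM with MW150, 1012, 959 and 557 TPM with Pifithrin-α, and 1076, 1437 and 1260 TPM with SMN-C3. Every Pifithrin-α library lay below every SMA, MW150 and SMN-C3 library, while WT spanned both. The ratio of Pifithrin-α to SMA was 0.625, with a 95% interval from 0.413 to 0.946 (limma adjusted p = 0.461). Without SMA+Pifithrin-α 3 the log2 difference went from -0.68 to -0.40, and it was -0.23 in the fit that holds the mitochondrial share. MW150 stood 0.65 ± 0.28 above Pifithrin-α (log2, SE, limma adjusted p = 0.529), and 0.37 without that library. SMN-C3 stood above Pifithrin-α by the same measure, with a log2 difference from SMN-C3 to Pifithrin-α of -0.62 ± 0.28 (SE, limma adjusted p = 0.688), and -0.34 without it.

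**Figure D2:**
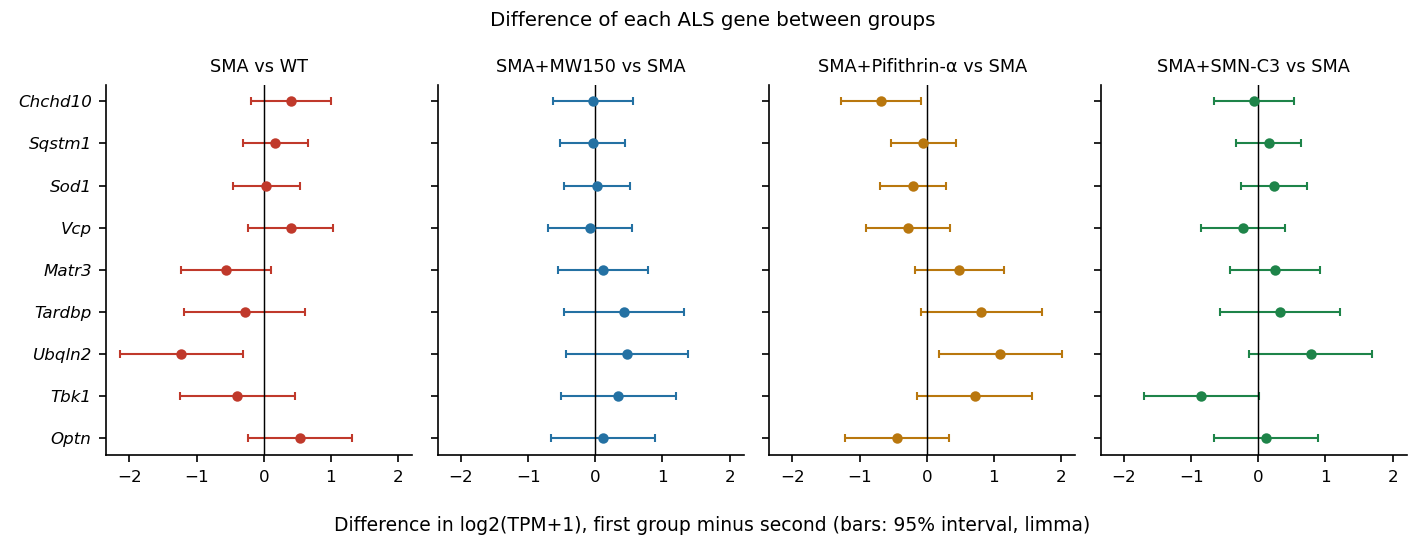
Difference in log2(TPM+1) of each ALS gene, SMA minus WT and each treated group minus SMA, as limma estimates with 95% intervals over 3 libraries a group. The intervals that leave out 0 are those of Ubqln2 in SMA against WT and of Ubqln2 and Chchd10 with Pifithrin-α, and none has an adjusted p below 0.286.

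Counted over the members, 0 of 9 were called between SMA and WT, where 0.363% of all tested genes were called. At an unadjusted p under 0.05 (limma), 1 of 9 passed against 13.5% of all genes. Separated groups were found in 1 of 9 members, against 18.3% of all genes. The median log2 difference was 0.04 over the members and 0.24 over all tested genes. The background is thus itself shifted, and median-of-ratios scaling moved the median of all genes to 0.04.

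Against SMA, none of the 9 was called with any treatment, and few other genes were. With MW150, 0.00648% of all genes were called, and 2 of 9 members (Tardbp and Tbk1) were separated against 10.9% of all genes. With Pifithrin-α, 0.00648% were called, and 3 of 9 members (Chchd10, Ubqln2 and Tbk1) were separated against 15.3%. With SMN-C3, 0.0648% were called, and 3 of 9 (Tbk1, Sod1 and Ubqln2) were separated against 20.7%. At an unadjusted p under 0.05 (limma), 0, 2 and 0 members passed in these 3 comparisons, against 1.90%, 10.7% and 8.53% of all genes.

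Set against WT, the treated groups also had no member called. The share of all genes called was 0.143% for MW150, 0.117% for Pifithrin-α and 0.0194% for SMN-C3. No member was separated from WT in these comparisons, where 19.9%, 6.87% and 12.8% of all genes were. Only Tbk1 with SMN-C3 had an unadjusted p under 0.05 (limma) among the 27 member tests against WT. Of all genes, 10.2% (MW150), 5.78% (Pifithrin-α) and 7.31% (SMN-C3) passed that threshold, so 1 member is no more than this background.

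Between treatments, 0 of 9 members were called in each of the 3 comparisons. Of all genes, 0.0% were called between MW150 and Pifithrin-α, 0.00648% between MW150 and SMN-C3, and 0.0% between Pifithrin-α and SMN-C3. Separated members numbered 1 of 9 (Chchd10) against 15% of all genes, 2 of 9 (Tbk1 and Sod1) against 29.6%, and 3 of 9 (Tbk1, Sod1 and Chchd10) against 13.5%. The F test over the 5 groups called 0 of 9 members and 0.22% of all genes.

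The members split by direction in the 2 libraries with the largest mitochondrial share. In WT 1 and SMA+Pifithrin-α 3, the gene totals of Tardbp, Matr3, Ubqln2 and Tbk1 were higher than in every one of the other 13 libraries. Chchd10, Sqstm1, Sod1 and Vcp were lower in both than in every one of the other 13. Optn was within their range in WT 1 and below it in SMA+Pifithrin-α 3. Relative to the median of the other 13, Ubqln2 stood at 3.87 times in WT 1 and 1.98 times in SMA+Pifithrin-α 3, and Tardbp at 2.54 and 2.61 times. Chchd10 stood at 0.506 and 0.445 times and Vcp at 0.573 and 0.555 times. With coding forms alone, Matr3 and Ubqln2 stayed above the other 13 in both libraries, and the 4 low members stayed below. Tardbp was then inside their span in WT 1, at 34.9 TPM against 26.6 to 51.8 TPM. Tbk1 was inside it in SMA+Pifithrin-α 3, at 19.1 TPM against 5.50 to 19.3 TPM.

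By gene totals, a place outside the range of the other 13 in both libraries was held by 8 of 9 members, against 30.7% of all tested genes. Above the range were 4 of 9 members against 4.74% of genes, and below it 4 of 9 against 26.0%. After median-of-ratios scaling the 4 high members stayed above the range, and none of the 4 low members stayed below it. Of all tested genes, 14.4% then lay above the range and 12.6% below it. On that scale Tardbp stood at 3.34 and 4.41 times the median of the other 13, and Sod1 at 0.953 and 1.12 times. The 2 libraries belong to different groups, and the part of RNA quality or of cell content in these values was not tested.

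**Figure D3:**
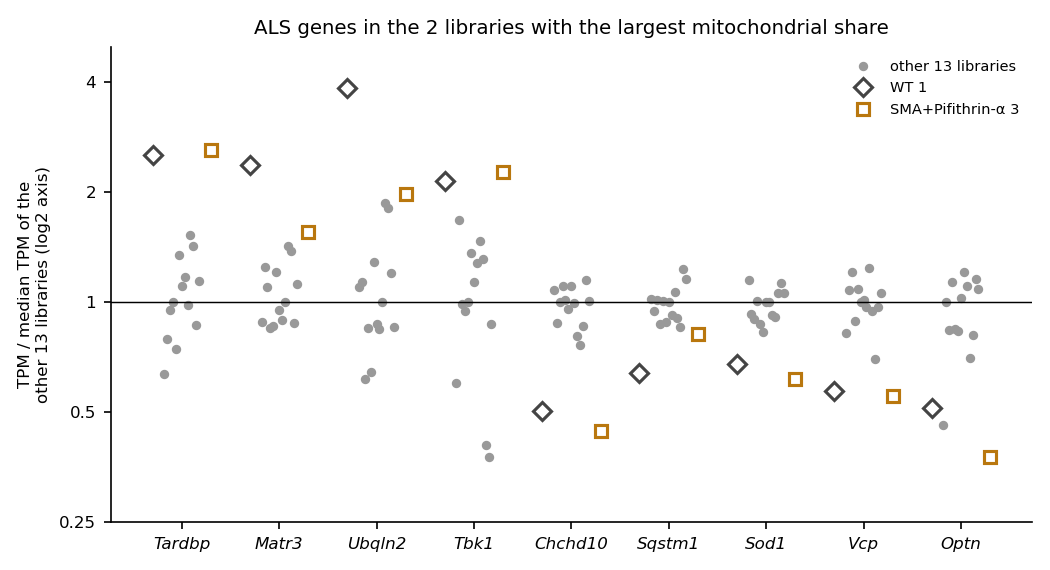
Level of each ALS gene in every library divided by its median in the 13 libraries other than WT 1 and SMA+Pifithrin-α 3 (log2 axis). Grey points are the 13 libraries, the open diamond is WT 1 and the open square SMA+Pifithrin-α 3. With all forms summed, 4 genes lie above the grey points in both, 4 lie below, and Optn lies inside them in WT 1.

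The transcript table showed how each gene's TPM was divided. It listed 78 transcripts of the 9 genes, and 47 passed the filter. Between SMA and WT none of the 47 was called (limma), and 0.221% of all 41719 tested transcripts were. At an unadjusted p under 0.05 (limma), 6 of the 47 passed, against 12.2% of all transcripts. The smallest adjusted p was 0.215, for Matr3-211. Sod1-201 held 99.7% of the TPM of Sod1, Vcp-201 held 95.3% of that of Vcp, and Optn-202 held 84.9% of that of Optn. All 3 are coding forms. The share of Vcp-201 was 65.8% in WT 1, at 86.0 TPM, and 92.6% to 99.8% in the other libraries. The noncoding Vcp-202 and Vcp-205 held 17.3% and 11.9% in WT 1.

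Tardbp was the most divided, with 27 of its 30 listed transcripts above 0 in some library and 17 past the filter, with 20.4% in the coding Tardbp-204 and 6.85% in Tardbp-202, whose coding part of 1242 bases is the longest among the forms above 4% of the gene. Tardbp-204 measured 13.2 TPM in WT 1 and 12.9 TPM in SMA+Pifithrin-α 3, inside the span of 11.2 to 20.9 TPM of the other 13 libraries. The noncoding Tardbp-222 measured 34.4 and 27.5 TPM there and at most 18.4 TPM elsewhere. The second most abundant form, Tardbp-214, is labelled coding with a coding part of 57 bases and measured 19.3 and 31.8 TPM there, above the other 13 libraries (at most 18.7 TPM). The 15 coding forms together summed to 34.9 TPM in WT 1, within the span of 26.6 to 51.8 TPM of the other 13, and to 92.8 TPM in SMA+Pifithrin-α 3, above it.

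Sqstm1 was divided between Sqstm1-202, with a coding part of 1326 bases, and the short Sqstm1-204, with one of 327 bases. Sqstm1-204 held 49.6% of the gene in WT 1 and 49.0% in SMA+Pifithrin-α 3, and 2.39% to 27.1% in the other 13 libraries. In Tbk1, the retained-intron form Tbk1-207 held 35.4% and 47.4% in the same 2 libraries and 0.0% to 25.1% in the others. The coding Tbk1-201 measured 6.27, 5.50 and 13.7 TPM with SMN-C3 and 10.2 to 14.7 TPM in SMA, so on this form alone these groups overlapped. With every form but Tbk1-207 summed they stayed separated, at 6.74, 6.25 and 13.7 TPM with SMN-C3 and 15.6, 14.9 and 15.7 TPM in SMA. Such short forms share exons with the full ones, and their values are estimates of how reads are divided.

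Chchd10 was split between the coding Chchd10-201 (57.0%) and Chchd10-202 (41.9%), a form of 405 bases that keeps an intron. Chchd10-202 held 33.3%, 34.3% and 37.0% of the gene with SMN-C3, below all of the other 12 libraries, which ran from 40.2% to 50.8%. The share was 34.9% ± 1.9 (SD, n = 3) with SMN-C3, 44.4% ± 1.6 in SMA and 45.6% ± 2.9 in WT. Chchd10-201 was correspondingly higher with SMN-C3, at 62.1% to 65.6%. Among the 46 member transcripts with a share to compare, these 2 forms of 1 gene were those in which a whole group stood apart from the other 12 libraries. In SMN-C3, 0.657% of 37767 transcripts of all genes stood above the other 12 libraries in this way and 0.726% below. The search covered all 5 groups and both directions. The shares must therefore be added up over the groups before they are set beside the 2 forms. The shares above and below were 0.392% and 0.556% in WT and 0.294% and 0.169% in SMA. They were 0.402% and 0.225% with MW150 and 0.164% and 0.146% with Pifithrin-α. Added up, the shares come near 2 of 46, so the 2 forms are close to this background. The 2 forms hold nearly all of the gene, so the share of one falls as that of the other rises. The pattern was picked out after the shares were seen and carries no test.

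**Figure D4:**
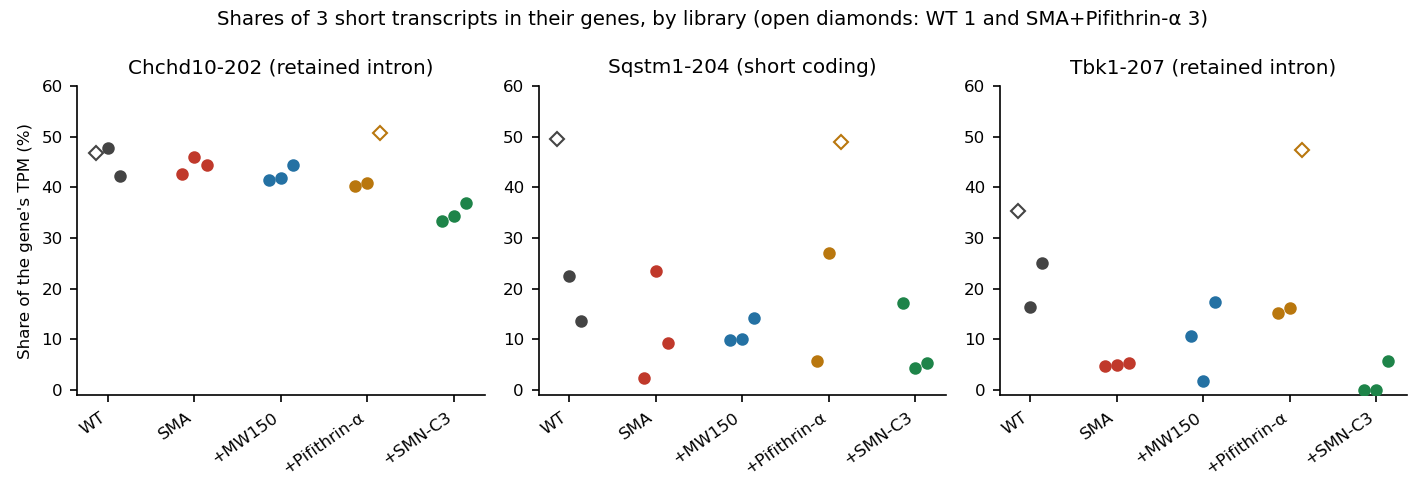
Share of the gene's TPM (percent) held by Chchd10-202, Sqstm1-204 and Tbk1-207 in the 15 libraries, by group. Open diamonds are WT 1 and SMA+Pifithrin-α 3. Chchd10-202 is lowest in the 3 SMN-C3 libraries, and the other two forms are highest in the diamonds.

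Other genes of the same pathways were read from 8 lists, none of which had a gene called in SMA against WT or in any other of the 10 comparisons (limma). The 33 other ALS genes, 32 of them tested, had 2 members higher and 3 lower at an unadjusted p under 0.05 between SMA and WT (limma). Of all tested genes, 10.6% were higher and 2.88% lower at that threshold, which is the background for each list. Their 2 smallest adjusted p were those of Taf15, which encodes an RNA-binding protein, with a log2 difference of -1.61 ± 0.44 (SE, limma adjusted p = 0.171), and Ccnf, which encodes cyclin F, with 1.52 ± 0.45 (SE, limma adjusted p = 0.204). Taf15 measured 14.2, 6.07 and 3.42 TPM in WT and 1.47, 1.98 and 1.28 TPM in SMA. Ccnf measured 0.129, 0.729 and 2.005 TPM in WT and 4.87, 3.47 and 4.31 TPM in SMA. In both genes the groups were separated, as in 18.3% of all genes, and both were picked by their p in this same comparison.

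For autophagy receptors and machinery, 4 of 28 genes were higher and 0 lower at an unadjusted p under 0.05 between SMA and WT (limma), against 10.6% and 2.88% of all genes, and the median log2 difference was 0.61 against 0.24 over all genes. Calcoco1 and Atg101 had the smallest adjusted p (limma, 0.352 and 0.368). Atg101 measured 18.1, 63.7 and 74.4 TPM in WT 1 to 3 and 98.3, 84.3 and 81.1 TPM in SMA, so WT 1 stood far below the rest. For TBK1 adaptors and signalling 1 of 10 was higher and 0 lower. There Mavs, the adaptor of RNA sensing on mitochondria, measured 2.49, 1.86 and 2.69 TPM in WT and 9.51, 5.57 and 5.88 TPM in SMA (limma adjusted p = 0.216). For VCP cofactors 1 of 23 was higher and 0 lower, with Selenos at an adjusted p of 0.370 (limma). For proteasome shuttles and ubiquitin factors 1 of 14 was higher and 0 lower, and there Ubqln4, a paralogue of Ubqln2, had a log2 difference of 1.11 ± 0.46 (SE, limma adjusted p = 0.346). Ubqln4 measured 3.98, 17.8 and 20.4 TPM in WT 1 to 3 and 29.1, 24.0 and 25.6 TPM in SMA, so WT 1 again stood far below the rest.

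For superoxide and peroxide defence, 5 of 22 genes were higher and 0 lower at an unadjusted p under 0.05 (limma), against 10.6% and 2.88% of all genes. Gpx1, which encodes a glutathione peroxidase, measured 68.9, 212 and 187 TPM in WT and 383, 316 and 276 TPM in SMA (limma adjusted p = 0.226). For the cristae organising system and its CHCHD relatives 1 of 15 was higher and 0 lower, with Chchd4 at an adjusted p of 0.355 (limma). For RNA-binding partners of the ALS proteins 3 of 20 were higher and 1 lower, with Hnrnpu at a log2 difference of -0.78 ± 0.29 (SE, limma adjusted p = 0.302). Hnrnpu measured 223, 87.4 and 108 TPM in WT 1 to 3 and 78.9, 65.9 and 79.2 TPM in SMA, so WT 1 stood far above the rest.

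The genes with the most similar pattern over the 15 libraries were taken by the Pearson correlation of log2(TPM+1), as a description. Chchd10 was closest to Pfn1, which encodes profilin 1 and is itself an ALS gene, with r = 0.989 over 15 libraries and 0.950 without WT 1 and SMA+Pifithrin-α 3. The ribosomal protein gene Rps16 was nearly as close to Chchd10, with r = 0.987 and 0.947 without these 2 libraries. Vcp was closest to Rab7 (r = 0.966, and 0.898 without the 2), a small GTPase of late endosomes. Ubqln2 was closest to Selenot (0.957 and 0.891), Matr3 to Cul4b (0.958 and 0.887) and Sod1 to Fam213b (0.946 and 0.804). Tardbp was closest to Ssr1 (0.937 and 0.827), Sqstm1 to the proteasome subunit gene Psmc2 (0.934 and 0.856), Tbk1 to Ldah (0.924 and 0.895) and Optn to Trim62 (0.922 and 0.911). Within the members, Tardbp and Matr3 had r = 0.827 and 0.638 without the 2 libraries, while Sod1 and Vcp had 0.509 and -0.56. Without the 2 libraries, the closest gene was the same for 2 of the 9 members (Chchd10 and Optn) and another gene for the rest. Libraries of 1 group share their treatment, and the libraries differ in cell-type markers.

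On the genome (GRCm38, GENCODE M21), several members lie under genes of the other strand, and whether reads were assigned by strand is not stated. Sod1 (chromosome 16, 90220754 to 90226329) overlaps Scaf4, Tardbp (chromosome 4, 148612382 to 148627019) overlaps Masp2, and Sqstm1 (chromosome 11, 50199366 to 50210827) overlaps Mrnip. Vcp (chromosome 4, 42979963 to 43000507) overlaps 1700022I11Rik, and Chchd10 (chromosome 10, 75933130 to 75937747) overlaps Mmp11 and Gm867. Optn (chromosome 2, 5020642 to 5064051) overlaps an antisense transcript. Tbk1 (chromosome 10, 121546455 to 121586787) and Ubqln2 (chromosome X, 153498227 to 153501570) overlap no annotated gene. Matr3, on chromosome 18, shares its strand with Gm28285 and has a named pseudogene, so its reads could be divided with these.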

How the data were processed

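Motor neuron RNA from 15 libraries was read as TPM (a length-corrected share of all transcripts) per gene and per transcript, as deposited by the authors. Per the submitters' processing notes, kallisto 0.44.0 and GRCm38.p6 were used, and DESeq2 is named there with no role. No counts were used here, so the depth behind a value is not known from these tables and no counting interval is given. The value of each member equalled the sum of its transcripts.

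The 9 members and the gene lists were chosen with earlier results of these data known. A gene was tested if 3 or more libraries held it at 1 TPM or above (15425 genes), and values were compared as log2(TPM+1) with limma 3.58.1 in R 4.3.3. One mean per group was fitted over all 15 libraries, with a variance trend, two-sided tests and Benjamini-Hochberg adjustment over all tested genes within each of 10 comparisons. Fold changes are on the log2(TPM+1) scale, which understates the change of low genes. The script was tested on simulated data. A gene was called at an adjusted p under 0.05. "Separated" means that the 3 libraries of one group all lie above or all below those of the other.

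Named are all members, the gene most correlated with each, the genes called in each of the 8 pathway lists or else up to 2 with the smallest adjusted p between SMA and WT, and Smn1. For Chchd10 the second most correlated gene is named too. Transcript types, lengths and positions are from GENCODE M21, to which 98.5% of the transcripts matched, and promoters are from RefSeq (GRCm38.p6). Python 3.11.15 with pandas 2.3.3 served for tables and matplotlib 3.10.9 for plots. Other pseudocounts, filters, scalings, a mitochondrial term, a replicate block, array weights, fits of 2 groups and fits without single libraries were tried. Leaving out WT 1 and SMA+Pifithrin-α 3 together was chosen after seeing the data.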

Additional observations from a re-analysis of the deposited data

How the results depend on the processing

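Of 432 alternative values for 24 log2 differences of the members, 409 kept their direction and their side of the threshold, 18 (of 5 genes) changed sign and 5 crossed the threshold. All 18 were differences between SMA and WT, none of them called. For Sod1 (0.04) the value was -0.21 with median-of-ratios scaling, -0.0705 without mitochondrial genes, -0.10 with quantile normalization, -0.22 with a term for the mitochondrial share, -0.15 under array weights and -0.16 without WT 1 and SMA+Pifithrin-α 3. Leaving out 1 library at a time gave -0.16 (without WT 1) to 0.22. For Tardbp (-0.28) it was 0.46 with the mitochondrial term, 0.19 with array weights and 0.32 without the 2 libraries, and -0.67 to 0.32 (without WT 1) leaving out 1 at a time. For Sqstm1 (0.17) it was -0.0801 with median-of-ratios scaling, -0.10 with the mitochondrial term and -0.034 without the 2 libraries, and -0.034 (without WT 1) to 0.30 leaving out 1 at a time. With the mitochondrial term Vcp was at -0.045 and Chchd10 at -0.0034. The cause was not tested.

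The count of members called was 0 under every alternative but array weights and fits of 2 groups. Array weights, which let libraries that fit poorly count less, called 3 of 9 between Pifithrin-α and SMA (Ubqln2, Tardbp and Matr3), 1 between Pifithrin-α and WT (Tardbp), 3 between MW150 and Pifithrin-α (Chchd10, Matr3 and Ubqln2), 1 between MW150 and SMN-C3 (Tbk1) and 1 between Pifithrin-α and SMN-C3 (Tbk1). A fit of only the 2 groups called 1 (Tbk1) between MW150 and SMN-C3. The count over all genes moved far more: array weights called 1574 genes between Pifithrin-α and SMA against 1, 2660 between MW150 and Pifithrin-α against 0, 1366 between MW150 and SMN-C3 against 1, 2341 between Pifithrin-α and SMN-C3 against 0, 609 between Pifithrin-α and WT against 18, and 231 between SMN-C3 and SMA against 10. Between SMA and WT the count was 56, 16 to 100 over settings that keep all libraries, 20 (without SMA 1) to 56 leaving out 1 at a time (32 without WT 1 or SMA 2) and 88 without the 2 libraries. Without the 2 libraries it was 166 between SMN-C3 and SMA, 42 between MW150 and WT (22 with all), and 375 between MW150 and SMN-C3. Between SMN-C3 and SMA the count was 0 when either SMA 1 or SMA 2 was dropped and 2 to 4 when any SMN-C3 library was. It gave 9 to 14 between MW150 and WT without WT 1, WT 2 or any MW150 library. Between Pifithrin-α and WT it gave 5 to 11 without WT 1, WT 2, SMA+Pifithrin-α 1 or 2, and 30 without SMA+Pifithrin-α 3. In the comparisons with 0 to 3 genes called, leaving out 1 library gave 0 to 8. With the mitochondrial term the count was 55 between MW150 and SMN-C3 against 1 and 9 between SMN-C3 and WT against 3, and array weights gave 39 in the latter.

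Replicate numbers were not labelled as pairs, and in 30 same-numbered pairs the correlation of deviations was -0.34 to 0.29, with 4 above 0.1. With the replicate number as a block, 0 of 9 members were called in every comparison, and 48 genes in all between SMA and WT and 7 between MW150 and SMN-C3. Depth could not be judged from TPM, and 3 libraries a group limit the precision.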
